A study of Mus musculus with 2 samples.

Results

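Sclerotome cells are the cells of the ventral somite, the segmented block of paraxial mesoderm on each side of the neural tube. They were picked here from single-cell RNA sequencing of whole mouse embryos at embryonic day 9.5 by a rule on transcripts. A cell was a member when it held at least 1 UMI (unique molecular identifier, 1 captured transcript) of Pax1, Pax9 or Nkx3-2 and a UMI of at least 2 of 6 somite genes, Meox1, Meox2, Uncx, Tcf15, Fap and Adra1a. Cells with any UMI of Dmrt2, Myf5, Epcam or Cdh1 were dropped, the first pair being genes of the dermomyotome and muscle precursors and the second pair epithelial adhesion genes. The rule took 152 of 28179 cells: 72 of 15161 in the wild-type library and 80 of 13018 in the Usb1-null library.

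Both libraries came from whole E9.5 embryos, dissociated to single cells and barcoded in droplets with the 10X 3′ chemistry. The Usb1-null embryos carried a germline knockout that removes exons 1 and 2 of Usb1 in every cell, so no Cre line or promoter limits it to the somite. Usb1 encodes an exonuclease that matures U6, the small nuclear RNA of the spliceosome. There was 1 library per genotype, and the number of embryos behind each is not known here. Every difference is therefore between these 2 libraries, with no replicate check and no test. The paper also describes the Usb1-null embryos as much smaller than wild-type ones by E9.5, so embryo size or stage and the genotype cannot be told apart. Intervals in brackets are 95% intervals that cover counting error only, and of paired values the wild-type one is given first.

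The sclerotome forms when Sonic hedgehog from the notochord and floor plate acts on the ventral somite, whose cells then lose their epithelial order and move around the notochord and neural tube. Pax1 and Pax9 are paired-box factors of this response, and Nkx3-2 acts downstream of them on the way to cartilage. The descendants build the vertebrae, the ribs and the tendons at their borders, while the dorsal dermomyotome, marked by Pax3, gives muscle and dermis. Each somite is also divided into an anterior part, which expresses Tbx18, and a posterior part, which expresses Uncx.

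Summed over members, 163772 wild-type and 279726 Usb1-null UMIs were available. The median member had 2049.5 UMIs (723 to 7620) in the wild-type and 3086.5 (1245 to 8972) in the Usb1-null library, against medians of 1243 and 2299.5 over all cells. The libraries shared 61 cell barcodes, and 2 of the wild-type members were among them. Xist had 409 UMIs in wild-type members and 0 in Usb1-null members, at least 233-fold lower against a floor of 3 counts, and the Y-linked Uty had 0 and 99, so the sex of the embryos and the genotype cannot be told apart. Usb1 itself had 0 UMIs in the members of both libraries, and in the rest of the embryo its level was 3.15 and 1.42 CPM (UMIs scaled to a total of 1e+06). Since 3′ libraries mostly read the end of a transcript and the knockout removes its first exons, these values were not used to check the genotype. The median log2 ratio between the libraries over the genes compared in members was 0.00.

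Pax1 was the most frequent of the entry genes Pax1, Pax9 and Nkx3-2. Pax1 without Pax9 was seen in 38 wild-type and 48 Usb1-null members, Pax9 without Pax1 in 23 of each library, and both in 10 and 8. Nkx3-2 was seen in 1 wild-type and 2 Usb1-null members. In this annotation (GRCm38) Pax1 lies on chromosome 2 at 147361925 to 147393295, plus strand, and Pax9 on chromosome 12 at 56691767 to 56712822, plus strand.

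Among the somite genes, Meox1, a homeobox gene of the whole somite, was seen in 45 of 72 wild-type and 49 of 80 Usb1-null members, with 59 and 75 UMIs. Adra1a, an adrenergic receptor gene, followed with 44 and 52 members, and Fap, a surface protease of mesenchyme, with 33 and 46. Meox2 was seen in 28 and 28 members, Uncx in 18 and 20, and Tcf15, a bHLH factor of the epithelial somite, in 10 and 14. Most members cleared the rule by little: 46 wild-type and 44 Usb1-null members had exactly 2 of the 6 genes, 19 and 24 had 3, and 7 and 12 had 4 or more. Just outside the rule, 76 wild-type and 72 Usb1-null cells had an entry gene and only 1 somite gene. Fap and Adra1a alone, without Meox1, Meox2, Uncx or Tcf15, carried 3 wild-type and 12 Usb1-null members. The drop step removed 1 wild-type cell, with Dmrt2, and 8 Usb1-null cells, 4 with Dmrt2, 2 with Myf5 and 2 with Epcam. All these values were used to choose the cells and describe them only.

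The rule needs transcripts of at least 3 genes, so a deeper cell passes it more easily. At full depth members made up 0.475% (0.372 to 0.598) of the wild-type cells and 0.615% (0.488 to 0.764) of the Usb1-null cells, a Usb1-null over wild-type ratio of 1.29 (0.929 to 1.80). When every cell with at least 1000 UMIs was thinned to 1000, a mean over 100 draws of 24 of 10188 wild-type cells (0.236%, 0.151 to 0.350) and 13 of 12406 Usb1-null cells (0.105%, 0.0558 to 0.179) still passed, a ratio of 0.445 (0.208 to 0.909). At 2000 UMIs it was 24 of 2542 (0.944%, 0.606 to 1.40) and 33 of 7976 (0.414%, 0.285 to 0.581), a ratio of 0.438 (0.251 to 0.775). The direction of the difference thus turned, with fewer members in the Usb1-null library at equal depth and more at full depth, where the interval spans both directions. Before thinning, members were 0.658% and 0.645% of the cells with at least 1000 UMIs. Of those with at least 2000 UMIs they were 1.49% and 0.865%. Leaving out shallow cells thus changed the difference before any thinning. Thinning left out 4973 wild-type and 612 Usb1-null cells at 1000 UMIs, and 12619 and 5042 at 2000, so the cells compared are not the same part of each library.

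**Figure D1:**
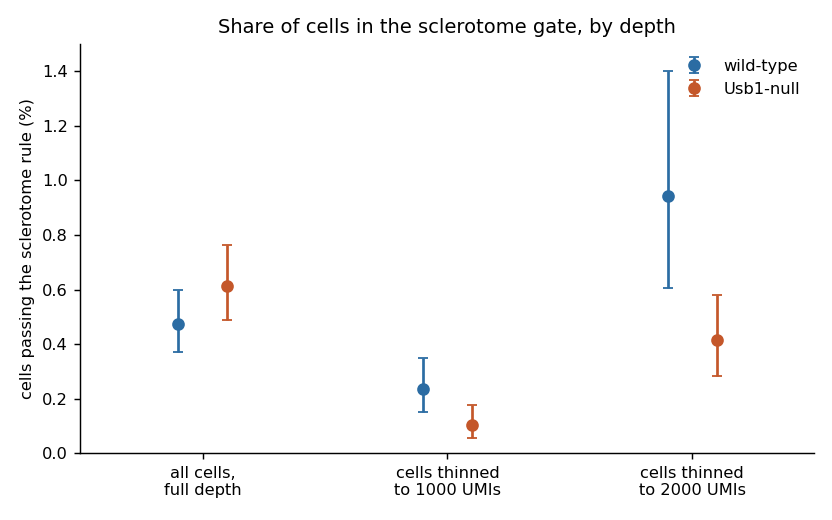
Share of cells that passed the sclerotome rule (percent of cells, y axis) in the wild-type (blue) and Usb1-null (orange) library, at full depth and after thinning each cell to 1000 or 2000 UMIs (rounded mean of 100 draws). Bars are exact binomial intervals for counting error; the Usb1-null point is above the wild-type point at full depth and below it at both thinned depths.

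Members differed from the rest of the embryo in a small set of genes. Of 2331 genes with at least 50 UMIs in members, 73 (3.13%) were at least 2-fold higher in members than in all other cells in both libraries, and 11 (0.472%) were at least 2-fold lower; with a minimum of 20 UMIs it was 115 of 5110 genes (2.25%) that were higher. The 73 include the rule's own Pax1, Pax9, Meox1, Meox2, Fap and Adra1a, and no test is attached, since the cells were chosen by their transcripts. The 10 genes outside the rule with the largest excess were Aldh1a2, Sncaip, Ebf3, Ebf2, Cdh11, Col26a1, Sema5a, Pdzd2, Nrg1 and Sdk1.

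Aldh1a2, the enzyme that makes retinoic acid in the trunk mesoderm, led this list. It had 52 UMIs across 22 wild-type members and 65 across 27 Usb1-null members, which is 318 CPM and 232 CPM against 39.5 and 38.9 CPM in the rest of the embryo, 8.04-fold and 5.97-fold higher. In somitic cells without Pax1, Pax9 or Nkx3-2 it was at 110 and 154 CPM, between members and the rest. Cdh11, a cadherin of mesenchyme, was seen in 64 of 72 and 74 of 80 members, with 259 and 423 UMIs (1582 and 1512 CPM), 3.24-fold and 3.08-fold over the rest of the embryo. At an equal 1000 UMIs Cdh11 was expected in 73.0% of wild-type and 71.3% of Usb1-null members, in 40.9% and 47.9% of somitic cells outside the gate and in 8.26% and 12.1% of endothelial cells.

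Ebf2 and Ebf3, early B-cell factor genes that are also active in mesenchyme, were both high. Ebf2 had 95 and 152 UMIs (580 and 543 CPM), 3.21-fold and 3.66-fold over the rest, and Ebf3 had 76 and 99 UMIs (464 and 354 CPM), 3.58-fold and 3.53-fold over it. Ebf2 also set members apart from other somitic cells, where it stood at 315 and 307 CPM, while Ebf3 was nearly level there, at 348 and 306 CPM. Nrg1, the secreted growth factor neuregulin, stood at 1844 and 929 CPM in members against 320 and 324 CPM in the rest. Sncaip, which encodes a synuclein-binding protein, was at 678 and 472 CPM against 107 and 86.5 CPM. Of the others, Sema5a, a guidance semaphorin, was at 721 and 708 CPM against 245 and 215 CPM, and Sdk1, an adhesion gene, at 1417 and 1269 CPM against 497 and 444 CPM. Col26a1, a collagen gene, was at 775 and 568 CPM against 231 and 187 CPM, and Pdzd2 at 427 and 340 CPM against 115 and 117 CPM.

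Only 13 genes (0.558%) were at least 2-fold higher in members than in somitic cells outside the gate in both libraries, and 4 (0.172%) were at least 2-fold lower. The rule's own Pax1, Pax9 and Adra1a are among the 13. Outside the rule Sncaip, Fam110b and Cped1 led, followed by Cdh11 and Ebf2, which were below the 2-fold line in 1 library and in both, respectively. Cped1 had 131 and 160 UMIs in members, 800 and 572 CPM, against 207 and 265 CPM in the other somitic cells. Fam110b was at 336 and 243 CPM against 137 and 111 CPM. With members and comparison cells both held to 1500 to 4000 UMIs, 7 genes passed the same 2-fold line.

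The sclerotome label was checked on genes of the sclerotome and its mesenchyme that the rule did not use. Foxc1, a forkhead factor of paraxial mesoderm, was 4.44-fold and 3.59-fold higher in members than in the rest, with 19 and 27 UMIs. Twist1, a bHLH factor of mesenchyme, was 3.03-fold and 3.75-fold higher, with 15 and 30 UMIs. Pdgfra, the receptor that marks paraxial and craniofacial mesenchyme, was 2.38-fold and 2.77-fold higher, with 48 and 114 UMIs. Sox9, the cartilage factor, was 2.40-fold and 2.66-fold higher with 11 and 24 UMIs, and Foxc2, the partner of Foxc1 in paraxial mesoderm, 3.21-fold and 2.61-fold higher with only 4 and 5 UMIs. Not every gene was higher in both libraries. Zic1, a zinc-finger factor of the dorsal somite and neural tube, was at 42.7 and 92.9 CPM against 51.9 and 42.5 CPM in the rest, and Col2a1 at 73.3 and 71.5 CPM against 94.2 and 79.8 CPM. Against other somitic cells the genes split. Foxc1 was at 116 and 96.5 CPM in members and 64.7 and 62.5 CPM there, Twist1 at 91.6 and 107 against 50.5 and 49.0 CPM, and Sox9 at 67.2 and 85.8 against 25.9 and 36.1 CPM. Pdgfra was closer, at 293 and 408 against 228 and 332 CPM, and Foxc2 was lower in members, at 24.4 and 17.9 against 38.8 and 26.3 CPM.

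**Figure D2:**
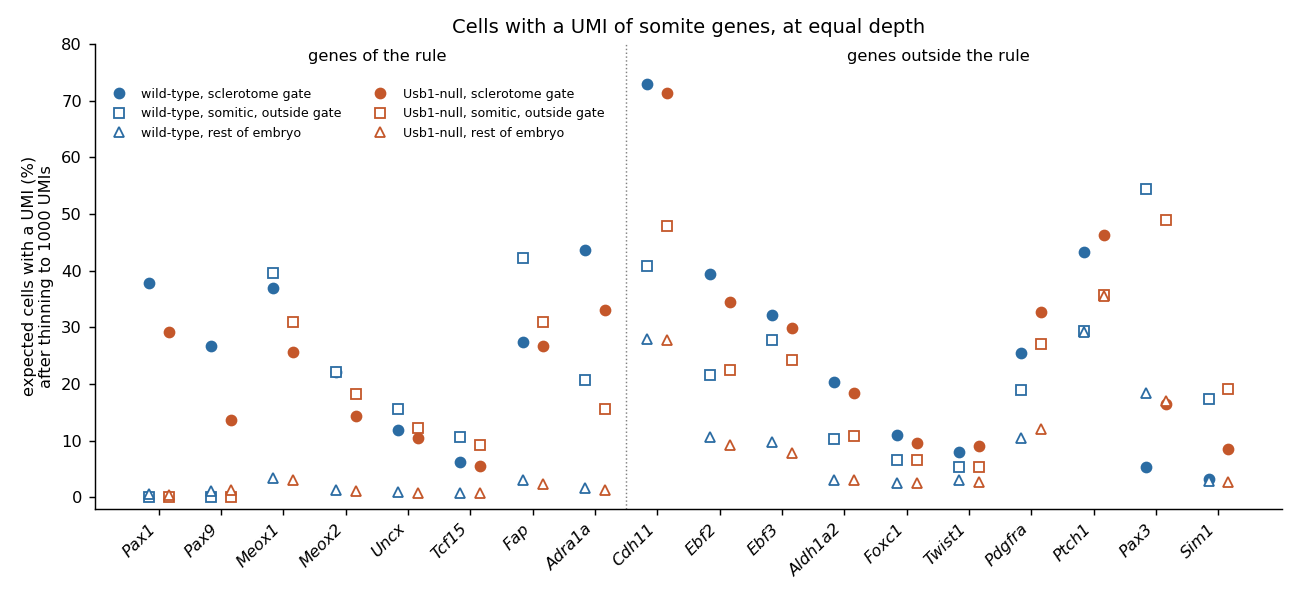
Expected percentage of cells with a UMI of each gene (y axis) after thinning each cell to 1000 UMIs, for members (filled circles), somitic cells without Pax1, Pax9 or Nkx3-2 (squares) and all other cells (triangles), in the wild-type (blue) and Usb1-null (orange) library. Genes left of the dotted line chose the cells. To its right Cdh11, Ebf2 and Aldh1a2 are highest in members of both libraries, whereas Pax3 and Sim1 are highest in the somitic squares.

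Most marker lists of other cell types were lower in members than in the rest of the embryo. The notochord list, T, Noto, Shh, Foxa2, Foxj1, Nog and Chrd, had 0 UMIs in wild-type members, and 3 of its 7 genes had 4 UMIs in Usb1-null members, with T, Noto and Shh at 0. Of the facial and pharyngeal arch list, Dlx1, Dlx2, Dlx5, Dlx6, Hand2 and Lhx8 were at 0 in both libraries, but the whole list of 10 genes, at 91.6 and 75.1 CPM, was level with the rest of the embryo at 83.9 and 74.5 CPM. Lateral plate and limb genes summed to 104 and 168 CPM, against 391 and 371 CPM in the rest, and neural crest genes to 153 and 193 CPM, against 225 and 209 CPM. Presomitic and tail bud genes summed to 42.7 and 35.7 CPM, against 74.7 and 90.4 CPM in the rest. Of these, Tbx6, Msgn1 and T were at 0 in members of both libraries. Msgn1 had no UMI in the rest either, and Tbx6 was only at 0.974 and 1.12 CPM there, so these zeros say little. The neural tube list had 9 and 14 UMIs, which is 55.0 and 50 CPM, against 272 and 219 CPM in the rest of the embryo, and the endothelial list was at 122 and 100 CPM, against 431 and 406 CPM. Erythroid genes were detected in full in wild-type members (8 of 8, 342 CPM) and less in Usb1-null members (6 of 8, 78.6 CPM), beside 848 and 211 CPM in the rest of the embryo. What part other cells' RNA has in the values below was not tested.

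Heart muscle genes summed to 97.7 CPM (55.8 to 159) over wild-type members and 354 CPM (288 to 431) over Usb1-null members. Most of the latter came from 1 cell, the member with most UMIs in that library (8972), which held 54 of the 63 UMIs of Ttn and 16 UMIs of Myh6 together with 3 UMIs of Pax1 and 2 of Meox1. Nkx2-5 was at 0 in both libraries. In all, 6 wild-type and 5 Usb1-null members carried at least 2 markers of 1 of the endothelial, erythroid (globins left out), neural tube or heart lists; they were kept, and values are given without them where they differ.

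Between the libraries, 165 of the 2331 genes (7.08%) were at least 1.5-fold higher and 152 (6.52%) at least 1.5-fold lower in Usb1-null members, on a log2(CPM + 1) scale. The counting interval of the ratio excluded 1 for 94 of the higher and 107 of the lower genes. Over the rest of the embryo, where sums are far larger, 19 and 49 of the same genes passed the line, and only 15 of the 165 higher and 24 of the 152 lower genes passed it there in the same direction. Gene lists below count genes with at least 20 UMIs, and of all 5110 such genes 12.9% were at least 1.5-fold higher and 11.6% lower.

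Several of the highest genes had like ratios in members and in the rest of the embryo. Lars2, a mitochondrial leucyl-tRNA synthetase gene, had 17 and 156 UMIs in members (log2 ratio 2.41) and had a log2 ratio of 2.05 in the rest of the embryo. Cmss1 had 236 and 1313 UMIs (1.70 in members, 1.67 in the rest), Gphn 78 and 322 (1.27 and 1.06) and Cdk8 53 and 186 (1.04 and 0.83). Of the genes with clone or predicted-gene names, Gm42418 had 401 and 2809 UMIs (2.04 and 2.22), AY036118 140 and 1201 (2.33 and 2.36) and Gm47283 524 and 274 (-1.71 and -1.76). Whether the UMIs of Lars2, Cmss1, Gm42418 and AY036118 come from the transcripts of these genes was not tested. On the lower side Rps18, a ribosomal protein gene, had 82 and 70 UMIs (log2 ratio -0.998 in members, -0.74 in the rest).

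Other genes were higher in Usb1-null members with a smaller difference, or one in the other direction, in the rest of the embryo. Kcnq5, a potassium channel gene, had 17 UMIs across 11 wild-type members and 88 across 34 Usb1-null members, a ratio of 3.03 (1.79 to 5.44), against a log2 ratio of 0.00 in the rest; its log2 ratio of 1.59 was 0.34 when only members with 1500 to 4000 UMIs were summed and -0.18 after thinning to 2000 UMIs. Ctnna2, an alpha-catenin of neurons, had 30 and 126 UMIs, a ratio of 2.46 (1.64 to 3.79), of which 37 of the Usb1-null UMIs lay in 1 cell. Ank2, an ankyrin, had 37 and 133 UMIs, a ratio of 2.1 (1.45 to 3.12), with no more than 7 UMIs in any cell. Ntm, a neuronal adhesion gene, had 46 and 136 UMIs, a ratio of 1.73 (1.23 to 2.47). Ythdc1, a reader of methylated RNA, had 23 and 81 UMIs, with log2 ratios of 1.04 in members and 0.36 in the rest.

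Slc8a1, the cardiac sodium-calcium exchanger, was decided largely by 1 cell. Wild-type members held 36 UMIs of it and Usb1-null members 161, a ratio of 2.62 (1.81 to 3.87), but 74 of the 161 lay in the Ttn-rich cell described above. Without that cell the log2 ratio of 1.38 became 0.55.

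Nrg1 was lower in Usb1-null members. It had 302 UMIs in 46 of 72 and 260 UMIs in 49 of 80 members, that is 1844 CPM (1642 to 2064) and 929 CPM (820 to 1050), a ratio of 0.504 (0.425 to 0.597), while the rest of the embryo was level (log2 ratio 0.02). In somitic cells outside the gate Nrg1 stood at 987 and 870 CPM. Members of the wild-type library thus stood above those cells, whereas Usb1-null members were close to them. Single cells held up to 41 and 47 UMIs of Nrg1, and with each cell weighted equally the log2 ratio of -0.99 was -0.63; with Fap and Adra1a left out of the rule it was -0.46, and after thinning to 1000 and 2000 UMIs -0.16 and -2.10.

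Kif26b, a kinesin-family gene of mesenchyme, had 78 and 59 UMIs, 476 and 211 CPM, a ratio of 0.443 (0.310 to 0.629). Epha4, the Eph receptor whose repulsion acts at somite borders, had 70 and 62 UMIs, 427 and 222 CPM, a ratio of 0.519 (0.362 to 0.741), with 317 and 315 CPM in the rest; among members with 1500 to 4000 UMIs its log2 ratio of -0.94 was -0.54. Nck2, an adaptor of receptor signalling, had 52 and 49 UMIs, a ratio of 0.552 (0.366 to 0.831). All 3 were level between the libraries in the rest of the embryo, with log2 ratios of 0.00, -0.01 and -0.03. Dcc, the netrin receptor, had 77 and 68 UMIs, but 33 of the wild-type UMIs lay in 1 cell. Tubb5 (58 and 52 UMIs), Mid1 (77 and 77) and Hdac4 (57 and 57) were lower too, with log2 ratios of -0.93, -0.77 and -0.77.

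**Figure D3:**
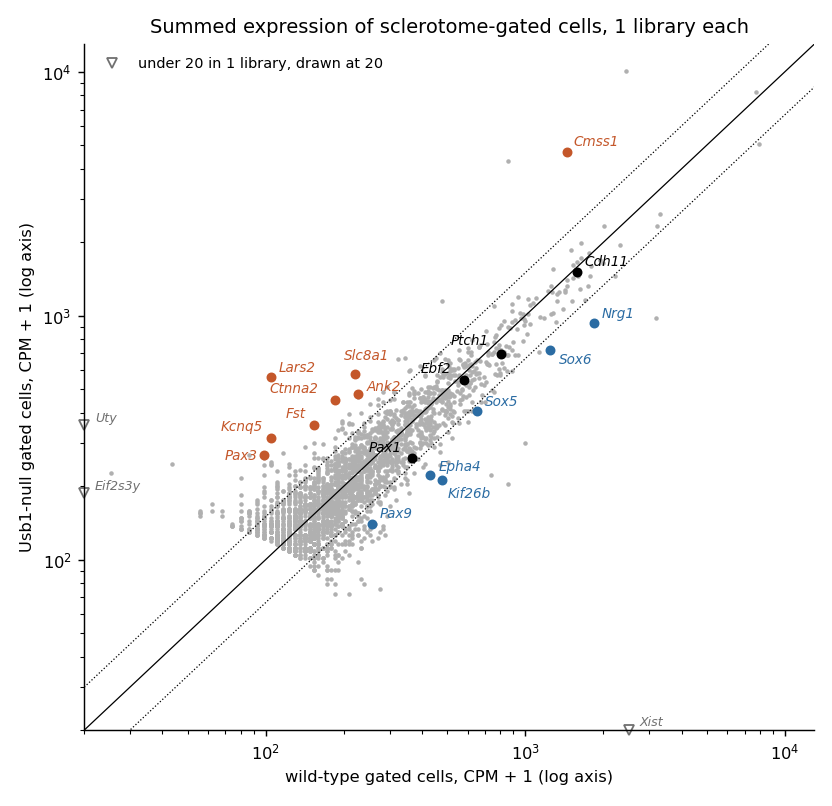
Summed expression of members per gene (CPM + 1, log axes) in the wild-type library (x) and the Usb1-null library (y), for the 2331 genes with at least 50 UMIs; the solid line marks equal values and the dotted lines 1.5-fold. Of the genes named, those in orange lie above the upper dotted line, those in blue below the lower one and those in black between. Open triangles are sex-linked genes under 20 in 1 library, drawn at the edge.

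Pax3 marks the dermomyotome and is lost from the sclerotome as it forms. It lies on chromosome 1 at 78101267 to 78197134, minus strand. Wild-type members held 16 UMIs in 7 of 72 cells (9.72%), and Usb1-null members held 75 UMIs in 26 of 80 (32.5%), that is 97.7 CPM (55.8 to 159) and 268 CPM (211 to 336). The ratio was 2.74 (1.58 to 5.05), while Pax3 was slightly lower in the rest of the Usb1-null embryo, with a ratio of 0.872. In somitic cells outside the gate Pax3 was seen in 60.4% of wild-type and 66.2% of Usb1-null cells, at 1346 and 1064 CPM.

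The share of cells with a UMI depends on depth. Endothelial cells, which should lack Pax3, had it in 6.82% of wild-type cells (median 1531 UMIs) and 12.4% of Usb1-null cells (median 2652). At 1000 UMIs a Pax3 UMI was expected in 5.38% of wild-type members against 4.39% of endothelial cells, and in 16.4% of Usb1-null members against 5.49%. Of the 7 wild-type members with Pax3, 5 held at least 2 UMIs of it. The part of free RNA in these shares was not tested. The log2 ratio of 1.45 was 2.18 without members that carried markers of other lineages, 2.05 among members with 1500 to 4000 UMIs, and 1.77 without the cell with most Pax3 UMIs in each library. Among members with at least 2 of Pax1, Pax9 and Nkx3-2, 0.0660% of wild-type and 0.0691% of Usb1-null cells, it was 0.36.

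The 26 Usb1-null members with Pax3 and the 54 without it had median depths of 3667.5 and 2892 UMIs. Aldh1a2 had 6 UMIs in 5 of the cells with Pax3 and 59 UMIs in 22 of those without it. In the wild-type library the order was the other way, with Aldh1a2 in 4 of 7 cells with Pax3 and in 18 of 65 without it. By the rule all these cells also held an entry gene. Sim1, a bHLH factor of the lateral dermomyotome, had 8 UMIs across 4 wild-type members and 32 across 17 Usb1-null members, a ratio of 2.34 (1.06 to 5.88), but its log2 ratio of 1.21 was 0.29 among members with 1500 to 4000 UMIs and -0.77 after thinning to 1000 UMIs. Of the 12 genes of the dermomyotome and myotome list, 4 were detected in wild-type and 5 in Usb1-null members. Myf6, Myod1, Myog, Lbx1 and Des were at 0 in both, and so were Dmrt2 and Myf5, which the rule removed. In the rest Myf6, Myod1, Myog and Lbx1 were at no more than 0.232 and 0.151 CPM, so their zeros say little. Des was at 13.4 and 9.12 CPM there. Summed over its 12 genes the list was at 177 and 618 CPM in members, against 1851 and 1558 CPM in other somitic cells. Of its 29 and 173 UMIs in members, Ttn gave 4 and 63, and 54 of the 63 lay in the 1 cell described above. The part of doublets in the Pax3 values was not tested.

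Fst, the secreted activin and BMP antagonist follistatin, was also higher. It had 25 UMIs across 14 wild-type members and 99 across 40 Usb1-null members, 153 CPM (98.8 to 225) and 354 CPM (288 to 431), a ratio of 2.32 (1.48 to 3.75). It was higher in the rest of the Usb1-null embryo too, with log2 ratios of 0.56 there and 1.21 in members, and it was 202 and 263 CPM in other somitic cells. At 1000 UMIs a Fst UMI was expected in 11.7% and 26.6% of members, against 1.01% and 2.61% of endothelial cells. With Fap and Adra1a left out of the rule the log2 ratio was 0.31.

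In the list of the BMP pathway, whose signals pattern the lateral and dorsal somite, 4 of 11 genes with at least 20 UMIs were at least 1.5-fold higher in Usb1-null members and 0 lower, beside 12.9% and 11.6% of all such genes. Id1, a target of BMP signalling, had 5 and 24 UMIs, a ratio of 2.81 (1.05 to 9.43), and reached the minimum mainly through its Usb1-null UMIs. The ligand Bmp5 had 25 and 60 UMIs and the receptor Bmpr1a 47 and 97, and neither passed the 1.5-fold line. Fst, described above, is counted again here among the 4 that did. The median log2 ratio of the list was 0.37, against 0.01 over all such genes and 0.10 for the list in the rest of the embryo, and it was -0.03 among members with 1500 to 4000 UMIs. Summed, the list was at 1868 and 2163 CPM in members and at 1889 and 2128 CPM in somitic cells outside the gate.

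Hedgehog signalling induces the sclerotome. None of the ligands Shh, Ihh and Dhh had a UMI in members. Ptch1, the receptor and a target of the pathway, had 132 UMIs in 42 of 72 wild-type members, or 806 CPM (674 to 956). In Usb1-null members it had 194 UMIs in 63 of 80, or 694 CPM (599 to 798), a ratio of 0.860 (0.686 to 1.08). The rest of the embryo differed the other way, at 469 and 599 CPM, and members were 1.72-fold and 1.16-fold above it. The log2 ratio of -0.22 in members was 0.18 and 0.14 after thinning to 1000 and 2000 UMIs, so its direction depends on depth. Smo, the signal transducer, had 47 and 64 UMIs, and the coreceptors Cdon and Boc had 27 and 47 and 30 and 40.

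Hhip and Gas1, surface proteins that bind the ligands, were the low members of this list. Hhip, an inhibitor and a target of the pathway, had 31 and 18 UMIs, 189 CPM (129 to 269) and 64.4 CPM (38.1 to 102), a ratio of 0.340 (0.179 to 0.627), and its level in the rest was 31.7 and 35.9 CPM. Wild-type members stood 5.98-fold above the rest in Hhip and Usb1-null members 1.79-fold. With Fap and Adra1a left out of the rule, the log2 ratio of Hhip went from -1.54 to -0.46. Gas1, a coreceptor that aids signalling, had 23 and 14 UMIs, a ratio of 0.356 (0.170 to 0.723). Over the 7 surface proteins the summed ratio was 0.763 (0.653 to 0.891) in members and 1.05 in the rest, with 2 of 6 counted genes at least 1.5-fold lower and 0 higher, beside 11.6% and 12.9% of all such genes. Of the transcription factors, Gli1, a target of the pathway, had 12 and 10 UMIs, a ratio of 0.488 (0.189 to 1.23). In the rest Gli1 differed the other way, with a log2 ratio of 0.48. Gli2 had 82 and 106 UMIs and Gli3 82 and 148, and the list ratio of 0.935 (0.787 to 1.11) was close to that of the rest, 0.955. In the median over the surface list the sign turned, from -0.34 to 0.67, in the members with at least 2 entry genes, and to 0.18 after thinning to 1000 UMIs.

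The cartilage list was lower in Usb1-null members. Sox5 and Sox6, cofactors of Sox9 in cartilage, held most of its UMIs. Sox6 had 204 UMIs in 46 and 202 UMIs in 62 members, 1246 CPM (1081 to 1429) and 722 CPM (626 to 829), a ratio of 0.580 (0.475 to 0.708), and Sox5 had 107 and 113 UMIs, a ratio of 0.618 (0.470 to 0.813). In the rest their log2 ratios were -0.19 and -0.17, beside -0.79 and -0.69 in members. The direction was mixed among the others. Sox9 itself had 11 and 24 UMIs, a ratio of 1.28 (0.602 to 2.89), and Col11a1 25 and 49, a ratio of 1.15 (0.695 to 1.94). Col2a1, the main cartilage collagen, had 12 and 20, a ratio of 0.976 (0.454 to 2.19), and Trps1 85 and 108, a ratio of 0.744. Of 8 counted genes 2 had a log2 ratio above 0. Acan, Comp, Matn1, Cnmd and Runx3, genes of formed cartilage or bone, were at 0 in both libraries. In the rest of the embryo they were at no more than 1.81 and 1.54 CPM, so these zeros say little.

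Over all 20 cartilage genes the summed ratio was 0.686 (0.608 to 0.776), against 0.933 in the rest of the embryo. Of 8 genes with at least 20 UMIs, 3 were at least 1.5-fold lower and 0 higher, beside 11.6% and 12.9% of all such genes. The median log2 ratio was -0.46 and stayed between -0.55 and -0.32 over the alternatives. The log2 ratio of Sox6 was 0.051 when Fap and Adra1a were left out of the rule and 0.048 after thinning to 1000 UMIs. Of 8 tendon progenitor genes 6 had a UMI in members. Mkx had 2 and 12 UMIs, a ratio of 3.51 (0.782 to 32.3), with 6 of the 12 in 1 cell. Scx and Tnmd had no UMI in members, but in the rest Scx was only at 0.742 and 1.06 CPM and Tnmd at 0 and 0.0604 CPM.

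Matrix genes were abundant in both libraries, with a sum of 5758 CPM over wild-type members and 4883 CPM over Usb1-null members against 2904 and 2555 CPM in the rest, and their ratio of 0.848 (0.780 to 0.922) was close to the 0.880 of the rest. Fbn2, a fibrillin of embryonic matrix, had 364 and 406 UMIs and Vcan, the large proteoglycan versican, 153 and 334. Among those with at least 20 UMIs Col5a2 was the lowest, with 34 and 20 UMIs and a ratio of 0.344 (0.188 to 0.616), and Fbn1 the highest, with 11 and 42 UMIs. Among 7 counted genes of mesenchymal transition 0 passed 1.5-fold in either direction, beside 12.9% higher and 11.6% lower of all genes with at least 20 UMIs. Cdh2 (122 and 194 UMIs), Zeb1 (147 and 218) and Fn1 (48 and 70) had log2 ratios of -0.10, -0.20 and -0.23. Snai1 and Snai2, which trigger the transition, had 2 and 4 and 0 and 2 UMIs.

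**Figure D4:**
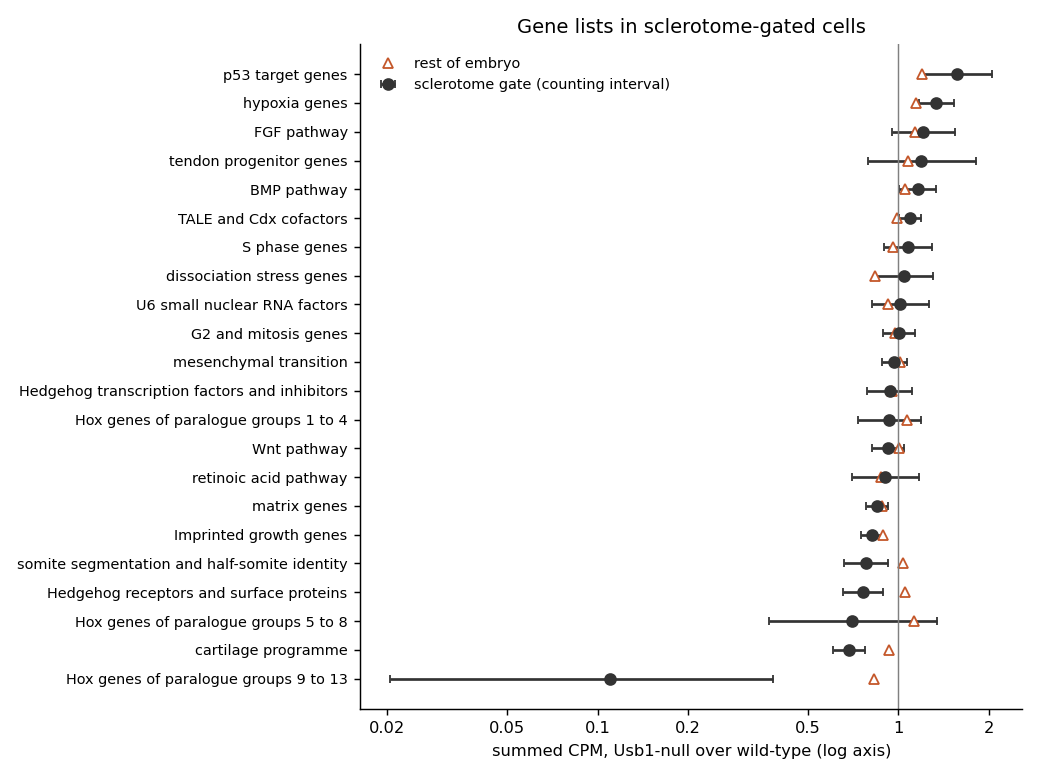
Summed CPM of each gene list in Usb1-null over wild-type members (filled circles, with counting intervals; x axis, log scale) and in the rest of the embryo (open triangles). Intervals of the Hox groups 9 to 13, cartilage, Hedgehog surface, somite segmentation, imprinted growth and matrix lists lie below 1 in members. Those of the p53, hypoxia, BMP and TALE and Cdx lists lie above 1.

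Hox genes place a cell along the body axis, with low paralogue groups at the head end and high groups toward the tail. Wild-type members held 149 Hox UMIs, of which 113 (75.8%, 68.2 to 82.5) were of groups 1 to 4, 20 (13.4%) of groups 5 to 8 and 16 (10.7%, 6.26 to 16.9) of groups 9 to 13. Usb1-null members held 207, of which 180 (87.0%, 81.6 to 91.2) were of groups 1 to 4, 24 (11.6%) of groups 5 to 8 and 3 (1.45%, up to 4.18) of groups 9 to 13. Anterior genes held most Hox UMIs in both, and the share of the posterior genes was lower in Usb1-null members.

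Hoxb9, on chromosome 11 at 96271457 to 96276595, plus strand, made up most of this. It had 13 UMIs in 12 of 72 wild-type members (16.7%) and 1 UMI in 80 Usb1-null members (1.25%), a ratio of 0.0450 (0.00106 to 0.30), and at 1000 UMIs it was expected in 7.39% and 0.264% of members, against 1.60% and 0.557% of endothelial cells. In somitic cells outside the gate Hoxb9 was seen in 10.1% and 10.3% of cells, and in 6.17% and 3.83% at 1000 UMIs. Summed over groups 9 to 13 the ratio was 0.110 (0.0205 to 0.384) in members and 0.830 in the rest. Over other somitic cells the posterior share of Hox UMIs was 12.0% (9.90 to 14.4) and 6.69% (5.58 to 7.94). Anterior Hox genes summed to 690 and 643 CPM, and Hoxd3 and Hoxb3, their main members, had 29 and 51 and 36 and 44 UMIs. Meis2, a Hox cofactor, had 330 and 653 UMIs and a log2 ratio of 0.21.

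**Figure D5:**
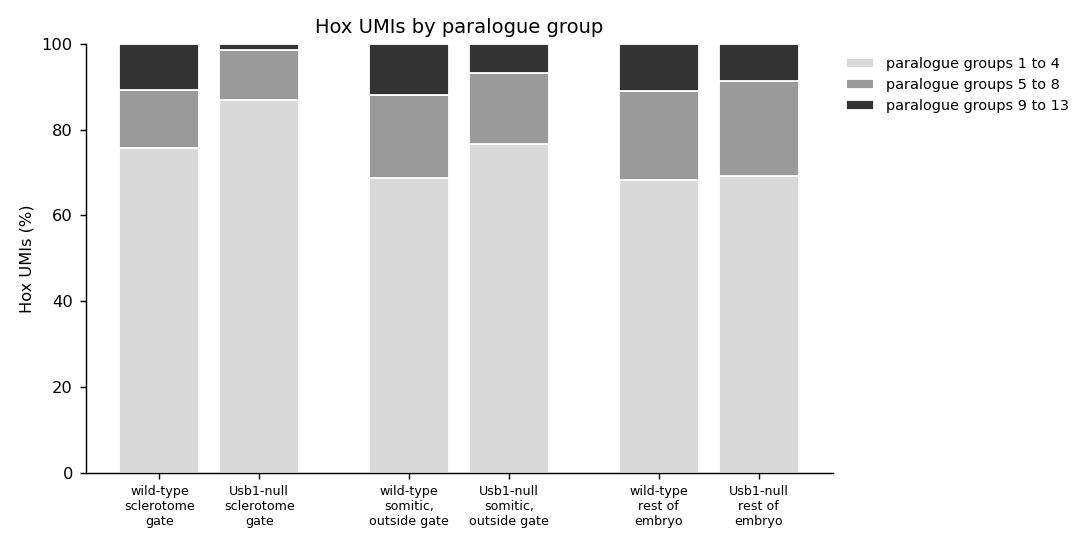
Percentage of Hox UMIs (y axis) from paralogue groups 1 to 4 (light), 5 to 8 (grey) and 9 to 13 (black) in members, in somitic cells outside the gate and in the rest of the embryo, for each library. Groups 9 to 13 take 10.7% in wild-type and 1.45% in Usb1-null members.

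Tbx18 and Uncx, genes of the anterior and the posterior somite, were not seen together in any member. Tbx18 was seen in 0 of 18 Uncx-positive and 6 of 54 Uncx-negative wild-type members (11.1%, 4.19 to 22.6), and in 0 of 20 Uncx-positive and 9 of 60 Uncx-negative Usb1-null members (15.0%, 7.10 to 26.6). With 0 seen, the exact interval allows a share of up to 18.5% and 16.8%, so the intervals of Uncx-positive and Uncx-negative cells overlap. The difference in share was 11.1 percentage points (-7.45 to 22.2) in the wild-type and 15.0 (-2.53 to 26.1) in the Usb1-null library. Median depths were 1890 and 2093 UMIs in wild-type members and 2829.5 and 3367.5 in Usb1-null members, Uncx-positive cells first. Endothelial cells had Tbx18 in 1.07% and 1.47% of cells. In the wild-type library all 6 cells with Tbx18 held Pax1, and in the Usb1-null library 8 of 9 did.

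The segmentation genes Mesp2, Ripply1 and Ripply2 had no UMI in members of either library. In the rest of the embryo they were at no more than 0.835 and 1.33 CPM, so their zeros say little. Lfng had 3 and 0 UMIs. Of 8 counted genes of this list, Epha4 and Efnb2, an ephrin ligand with 31 and 32 UMIs, were at least 1.5-fold lower and 0 higher. Of all genes with at least 20 UMIs 11.6% were lower and 12.9% higher. The summed ratio of the list was 0.780 (0.661 to 0.921) while the median log2 ratio was 0.11, so sum and median differ in sign. The guidance genes Sema3a and Spon1 had 75 and 89, and 20 and 42 UMIs.

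Transcripts of dividing cells were present in both libraries. Top2a, a topoisomerase of G2 and mitosis, had 85 and 168 UMIs and Mki67 46 and 123, and the G2 and mitosis list had a summed ratio of 1.0 (0.890 to 1.13) with a median log2 ratio of -0.26. For S phase genes it was 1.07 (0.898 to 1.29). Of 14 counted genes 4 were at least 1.5-fold higher and 3 lower, beside 12.9% and 11.6% of all genes with at least 20 UMIs. The largest ratio was that of Ccne2, with 4 and 23 UMIs, which reached the minimum mainly through its Usb1-null UMIs. No phase was called per cell.

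Targets of p53 summed to 476 CPM over wild-type members and 744 CPM over Usb1-null members, a ratio of 1.56 (1.20 to 2.05), against 1.20 in the rest of the embryo. Eda2r, a receptor of the TNF family, had 0 UMIs in wild-type members and 13 UMIs in 9 Usb1-null members, at least 2.54-fold higher against the floor, and it was higher in the rest of the Usb1-null embryo too, at 7.65 and 30.4 CPM. Bax, which drives mitochondrial death, had 3 and 18 UMIs, a ratio of 3.51 (1.03 to 18.6), and was lower in the rest, at 65.8 and 46.1 CPM. Cdkn1a, the arrest gene, had 0 and 3 UMIs and Mdm2, the feedback gene, 14 and 24. Of 6 genes with at least 20 UMIs 3 were at least 1.5-fold higher and 0 lower, beside 12.9% and 11.6% of all such genes. Bax, with 3 wild-type UMIs, reached this minimum mainly through its Usb1-null UMIs. The median log2 ratio of 0.60 was -0.40 in members chosen without Fap and Adra1a and 0.17 without members that carried other lineages' markers.

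Hypoxia genes were mostly higher in Usb1-null members. Of 14 genes with at least 20 UMIs 5 were at least 1.5-fold higher and 0 lower, beside 12.9% and 11.6% of all such genes. In 13 the log2 ratio was above 0, and the summed ratio was 1.34 (1.17 to 1.53), against 1.14 in the rest. Somitic cells outside the gate differed the same way, at 1863 and 2412 CPM beside 1917 and 2560 CPM in members. Bnip3, a mitophagy gene, had 3 and 21 UMIs, a ratio of 4.10 (1.22 to 21.5), with log2 ratios of 1.98 in members and 1.29 in the rest. Hk2, a glycolytic enzyme, had 20 and 62 UMIs, Pgk1 18 and 50, and P4ha2, a collagen prolyl hydroxylase, 3 and 20, a ratio of 3.90 (1.16 to 20.5). Bnip3 and P4ha2 reached the minimum mainly through their Usb1-null UMIs. The median log2 ratio of 0.52 was 0.22 without the members that carried other lineages' markers.

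The TALE and Cdx cofactor list had a ratio of 1.09 (1.004 to 1.18), against 0.986 in the rest. Of the lists that follow, only the imprinted growth genes had an interval off 1. The retinoic acid list had a ratio of 0.904 (0.700 to 1.17), the Wnt list 0.923 (0.818 to 1.04) and the FGF list 1.21 (0.954 to 1.54), in which Fgfr2 had 51 and 127 UMIs. Imprinted growth genes had a ratio of 0.817 (0.752 to 0.888), against 0.890 in the rest, with Meg3 at 291 and 407 UMIs and Cdkn1c at 10 and 4. Of 13 genes of U6 small nuclear RNA factors with a UMI, 0 of 7 counted were at least 1.5-fold higher and 1, Lsm7, was lower. Of all genes with at least 20 UMIs the shares were 12.9% and 11.6%, and the ratio of the U6 list was 1.02 (0.816 to 1.27). Dissociation stress genes had a ratio of 1.04 (0.836 to 1.31), with Fos, Fosb and Junb at 0 in both libraries.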

How the data were processed

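The data were 2 droplet libraries (10X 3′ v3.1 chemistry), 1 of wild-type and 1 of Usb1-null E9.5 embryos. The authors deposited, per library, a matrix of raw UMI counts per gene and barcode, with no normalization. The matrix header names Cell Ranger 6.1.2, whereas the submitters' processing notes name 2.1.1, with build mm10. The labels give nuclear RNA as the molecule, whereas the protocol describes a cell suspension.

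Barcodes with 200 to 6000 detected genes were kept, and members were chosen by the stated rule, which was proposed, like the gene lists, with earlier results of these data known. The names of cells rest on this rule and not on an annotation by the authors. No doublet caller was run; removing barcodes with at least 2 markers of another lineage was an alternative. UMIs were summed over members per library and expressed as CPM, and a log2 ratio compares the Usb1-null with the wild-type value after adding 1 CPM to each, which understates the change of low genes. Counts carry exact Poisson, shares exact Clopper-Pearson and ratios exact conditional binomial 95% intervals, and differences of shares Newcombe intervals. Expected shares at 1000 UMIs are exact expectations of thinning without replacement, over cells with at least 1000 UMIs. Somitic cells outside the gate had at least 2 of the 6 somite genes and no UMI of Pax1, Pax9, Nkx3-2, Epcam or Cdh1 (396 wild-type, 494 Usb1-null); endothelial cells had at least 2 of Kdr, Pecam1, Cdh5, Tek and Emcn (748 and 817).

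Named genes outside the rule, leaving out sex-linked and mitochondrial genes and those with only a clone or predicted-gene name, were the 10 with the largest excess over the rest of the embryo (at least 50 UMIs in members of each library), the 10 highest and 10 lowest ratios between libraries (at least 100 UMIs), the 5 highest and 5 lowest differences of that ratio from the rest, the 5 with the largest excess over somitic cells, and list members whose role is described; list medians used genes with at least 20 UMIs. Pax3, Sim1 and Hoxb9 were singled out after their values were seen. Of 343 list symbols, 342 were found, and some list members are not reported here. Coordinates are from the GENCODE annotation of GRCm38. The scripts used Python 3.11.15, NumPy 2.4.6, SciPy 1.17.1, pandas 2.3.3 and Matplotlib 3.10.9, and the count and interval code was tested on simulated data.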

Additional observations from a re-analysis of the deposited data

Results flagged for a closer look

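For 132 named, listed and marker genes with at least 50 UMIs in members, the Usb1-null over wild-type ratio was set beside that of the rest of the embryo. In 5 genes they lay on opposite sides of 1 with both counting intervals off 1. The difference has no replicates and was not tested. Slc8a1, Ntm and Peak1 had been named for the size of this same difference, and Pax3 was singled out after its values were seen. Their flags are therefore a description and add no support, and no count over all genes compared was made. The ratio in members divided by that in the rest was 3.15 for Pax3 (2.74 in members, 0.872 in the rest), 3.09 for Slc8a1 (2.62 and 0.846, with 74 of 161 Usb1-null UMIs in 1 cell), 2.72 for Fbn1 (2.24 and 0.822), 2.03 for Ntm (1.73 and 0.854) and 0.563 for Peak1 (0.669 and 1.19). Fbn1 had 11 and 42 UMIs, and Peak1, a pseudokinase of the cytoskeleton, 63 and 72.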

How the results depend on the processing

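No paired analysis was possible because each genotype has 1 library. The Usb1-null over wild-type ratio of the member share, 1.29 at full depth, was 0.675 among cells with 1500 to 4000 UMIs, 0.469 and 0.443 in single thinning draws to 1000 and 2000 UMIs, and 0.445 and 0.438 as the mean of 100 draws, an alternative added after seeing the data. Genes at least 1.5-fold higher (165) and lower (152) were 660 and 591 with a minimum of 20 UMIs and 9 and 15 with 200, where 5110 and 286 genes were compared. They were 101 and 78 of 854 genes without Fap and Adra1a, 14 and 8 of 72 with at least 2 entry genes, 6 and 11 of 47 thinned to 1000, 21 and 32 of 300 thinned to 2000, and 93 were lower among 1316 genes at 1500 to 4000 UMIs. Genes 2-fold over the rest (73) were 36, 16, 6 and 26 in the same 4 settings without Fap and Adra1a, with 2 entry genes and thinned to 1000 and 2000, and genes 2-fold over other somitic cells (13) were 5, 1, 0 and 4, and 7 at 1500 to 4000 UMIs. Of 20 gene lists, 10 had a median above that of all genes; this was 4 of 12 with 2 entry genes and 2 of 9 thinned to 1000.

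Some log2 values changed sign. Thinned to 1000, Hedgehog surface proteins and matrix genes were at 0.18, Pax9 0.030, Sim1 -0.77, Sox6 0.048, Kcnq5 -7.17 and Bnip3 -5.20, all resting on a few UMIs. Thinned to 2000, the BMP list was at -0.071, retinoic acid 0.33, Kcnq5 -0.18 and Vcan -0.061. With 2 entry genes, Hedgehog surface proteins were at 0.67, BMP -0.90, FGF -0.092, G2 and mitosis 0.23, Pax9 0.16 and Nck2 0.46. Without Fap and Adra1a, G2 and mitosis were at 0.17, p53 targets -0.40, U6 factors -0.084 and Sox6 0.051. At 1500 to 4000 UMIs, BMP was at -0.028, retinoic acid 0.16 and G2 and mitosis 0.029, and with each cell weighted equally G2 and mitosis were at 0.13. Apart from fewer genes and cells, the cause was not tested. Of the values for single genes and lists, 639 stayed within their counting interval, or within 1.5 times for a count. Another 102 moved outside it, in either direction. A change of sign was counted only where the first interval excluded no change, and it was counted for 25 values. Changes of sign among the other values were not counted apart. The main results were tallied by the same measure. They were the member share, the counts of genes and of list medians, and the Tbx18 shares. Of their values 78 stayed and 29 moved. Membership itself depends on depth, and thinning left 4973 wild-type and 612 Usb1-null cells out at 1000 UMIs.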
